A study of Mus musculus with 8 samples.

Results

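The genes described here encode the calcium/calmodulin-dependent protein kinases (CaM kinases), 10 genes of the 54446 in the deposited count table: the 4 subunits of CaMKII (Camk2a, Camk2b, Camk2d and Camk2g), CaMKIV (Camk4), 3 forms of CaMKI (Camk1, Camk1d and Camk1g) and the 2 kinases that activate CaMKI and CaMKIV (Camkk1 and Camkk2). They were taken by name, as members of the family, with gene identifiers matched to GENCODE mouse release M21. The RNA came from 4 wild-type mouse samples, called WT, and 4 of genotype Scn2agt/gt, called HOM, all littermates from heterozygous parents and of the strain the labels write as C75BL6. The gt allele is a gene trap in Scn2a, which encodes the voltage-gated sodium channel NaV1.2, and the study asks what a severe shortage of that channel does in adult mice. Age, sex, brain region and the animal behind each sample are not given in the labels used here, so p-values measure only the spread between these 8 libraries. Values are given in the order of replicates 1 to 4 of each genotype, and a value after ± is the SD (n = 4 libraries).

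CaM kinases carry calcium signals from the membrane to the synapse and the nucleus. When neurons fire, calcium enters, binds calmodulin, and the complex opens the kinases' autoinhibited catalytic domains. CaMKII assembles into a ring-like holoenzyme, is very abundant in forebrain excitatory synapses and can phosphorylate itself so that it stays active after calcium falls. CaMKI and CaMKIV instead need phosphorylation by a CaM kinase kinase for full activity, and CaMKIV acts largely in the nucleus, where the transcription factor CREB is among its substrates.

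Of the 10 genes, 2 were lower in HOM and none was higher at an adjusted p under 0.05. Camk1g, the gene of CaMKI gamma, stood in HOM at 70.8% of its WT level. Camkk2, the gene of the kinase kinase CaMKK2, stood at 78.2%. The other CaMKI genes, Camk1 and Camk1d, and the other kinase kinase gene, Camkk1, did not pass. The neuron-enriched Camk2a stood at 86.6% of WT without passing the test, and its relative Camk2b at 98.8%. For comparison, 5.40% of the 17395 genes tested passed in either direction, 2.94% as lower and 2.47% as higher (edgeR quasi-likelihood test, Benjamini-Hochberg adjustment over all genes tested). At an unadjusted p under 0.05 (edgeR), 6 of the 10 genes were lower, beside 12.5% of all genes. At that level 1 gene, Camk1d, was higher, and the share of all genes higher was not counted. DESeq2 placed 5 lower and 0 higher past the adjusted threshold, against 6.15% of all genes lower by that tool. The median log2 fold change of the family was -0.20, beside 0.00 for all genes, and 8 of the 10 values were below 0, as were 49.8% of all genes.

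Scn2a itself stood at 371 to 477 CPM (counts scaled to library size, with TMM factors) in WT and at 112 to 147 CPM in HOM, 29.4% of WT, so the libraries match their genotype labels. Total counts per library lay between 27993412 and 37538988. The labels call the cells neuron, but transcripts of glia were plentiful: the 5 astrocyte markers summed to between 4116.5 and 4432.4 CPM in WT and between 3199.7 and 4042.9 CPM in HOM, and the 5 oligodendrocyte markers to between 3395.5 and 5092.0 and between 2948.0 and 3578.2 CPM. The 5 excitatory cortical neuron markers summed to between 1642.2 and 2038.6 CPM in WT and between 1584.9 and 1772.7 CPM in HOM, with 1 of 5, Neurod6, lower. Of the inhibitory neuron markers 1 of 6, Gad1, was lower (sums of 783 to 911 CPM in WT and 681 to 737 CPM in HOM), and of the astrocyte markers 1 of 5, Aqp4. No oligodendrocyte marker passed with edgeR, but all 5 were lower at an unadjusted p under 0.05, beside 12.5% of all genes. DESeq2 placed 2 of the 5 past the adjusted threshold as lower. Of the 4 tested microglia markers 1, the complement gene C1qa, was higher, at 31.3 ± 4.72 CPM in WT and 42.2 ± 5.17 CPM in HOM without overlap. Its edgeR adjusted p rounds to 0.05, only just under the threshold. The other 3 tested did not pass, with log2 fold changes of 0.00 to 0.09. The part of these shifts in the results below was not tested. In such mixed tissue fewer cells of a type and less RNA per cell cannot be told apart. Some libraries stood apart. Choroid plexus markers summed to between 145 and 1701.9 CPM in WT, highest in WT replicate 4, and between 17.4 and 232 CPM in HOM, with 3 of 7 tested lower and the 8th, Kcnj13, at 0. WT replicate 4 was also highest for the 5 thalamic neuron markers, none of which passed. They summed to between 67.1 and 151 CPM in WT and between 66.5 and 87.7 CPM in HOM. HOM replicate 4 held 2 counts of 4 Y-linked genes, against 4452 to 5984 in every other library. Cerebellar neuron markers summed to 10.2 CPM in HOM replicate 1 and to between 0.527 and 1.05 CPM in the other libraries. Nearly all of that sum came from Gabra6 (3.29 CPM) and Cbln3 (6.56 CPM). Barhl1 stood at 0.332 CPM in HOM replicate 1 and at 0.0659 to 0.322 CPM in the other libraries. Pcp2, Cbln1 and Kcnj13 lie wholly inside other annotated genes, where nearly all genes stand at 0 in this table, so their values of 0 carry no information on these cells.

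Because both lower genes have a promoter in the RefSeq table (GRCm38.p6), the 250 bases before each start are shown to let the 2 be compared. Whether these starts are the ones used in these samples was not tested. Camk1g is at chr1:193370283-193370532 and Camkk2 at chr5:122779411-122779660, both on the minus strand and written 5′ to 3′ on the gene's strand, with capitals marking any match to the motifs searched.
Camk1g: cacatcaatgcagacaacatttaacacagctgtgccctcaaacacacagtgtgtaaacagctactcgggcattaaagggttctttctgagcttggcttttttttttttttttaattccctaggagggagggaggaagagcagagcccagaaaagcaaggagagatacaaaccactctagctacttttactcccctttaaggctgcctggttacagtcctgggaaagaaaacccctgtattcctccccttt
Camkk2: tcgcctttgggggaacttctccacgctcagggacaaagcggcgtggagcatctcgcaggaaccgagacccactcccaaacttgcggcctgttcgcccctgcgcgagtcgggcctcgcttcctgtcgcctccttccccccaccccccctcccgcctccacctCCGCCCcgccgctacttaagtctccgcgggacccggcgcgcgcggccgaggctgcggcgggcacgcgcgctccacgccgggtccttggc

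The 2 sequences differ in composition, with 44.8% G and C in the Camk1g window and 72.4% in that of Camkk2, around a median of 52.4% over all promoters of the table. Searched on both strands were the cyclic AMP response element TGACGTCA, its half-site TGACG, which lies inside it, the Egr site GCGTGGGCG, the GC box GGGCGG, the E-box CACGTG and the TATA box TATAAA. The Camk1g window held none of these letters. That of Camkk2 held 1 GC box, on the other strand at bases -89 to -84 from the start, a motif present in 32.7% of the 32851 promoters. Of the 10 genes, 7 had 8 promoters in the table between them. GC boxes occurred in 6 of the 8. The half-site occurred in those of Camk1 and Camkk1, and in 17.8% of all promoters, whereas the full element (1.55% of all), the Egr site (0.536%), the E-box (6.02%) and the TATA box (12.4%) occurred in none of the 8. A match of letters is a description and not evidence of binding.

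Camk1g encodes CaMKI gamma, a membrane-anchored CaMKI of neurons. Its level was 40.0, 44.1, 47.4 and 44.5 CPM in WT, and 28.9, 32.9, 32.5 and 30.3 CPM in HOM. Every HOM library lay below every WT library, with group means of 44.0 ± 3.04 and 31.1 ± 1.88 CPM. This is a log2 fold change of -0.50 with an SE of 0.08 (adjusted p = 0.00613 by edgeR). Permuting genotypes over the libraries, an exact two-sided test of log2 CPM, gave p = 0.0286, the smallest value 70 relabellings allow. This unadjusted value follows from the lack of overlap and adds nothing to it. Of all genes tested, 14.1% did not overlap in either direction. Camk1g (ENSMUSG00000016179) occupies the minus strand of chromosome 1 from 193346346 to 193370298 in GRCm38, and 2.62% of this span, none of it exonic, is shared with another annotated gene. At least 936 counts lay behind each library's value.

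Camkk2 encodes CaMKK2, which phosphorylates CaMKI, CaMKIV and the energy sensor AMPK. It stood at 377, 381, 378 and 340 CPM in WT and at 277, 297, 292 and 288 CPM in HOM. The genotypes did not overlap, although WT replicate 4 lay well below the other WT libraries. Means were 369 ± 19.4 and 289 ± 8.34 CPM, with a log2 fold change of -0.36 (SE 0.06, edgeR adjusted p = 0.0108; exact two-sided permutation test, p = 0.0286). The gene (ENSMUSG00000029471) runs on the minus strand of chromosome 5 from 122731170 to 122779409 and shares no base with another annotated gene.

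Both calls held in edgeR with each library left out in turn, at adjusted p up to 0.0337 for Camk1g and up to 0.0499 for Camkk2. Both were lost with the choroid plexus marker level as a covariate, where the fitted log2 fold changes were larger, at -0.59 for Camk1g (edgeR adjusted p = 0.0732) and -0.46 for Camkk2 (0.0708). That level, a mean log2 CPM over 7 markers, was 3.52 ± 1.35 in WT and 0.97 ± 1.20 in HOM, so the covariate and the genotype share much of their spread. Without WT replicate 4, the library richest in these markers, Camk1g stood at -0.49 (edgeR adjusted p = 0.0188) and Camkk2 at -0.39 (0.0125). The marker level of the remaining libraries was still 2.07 to 3.60 in WT and 0.00 to 2.68 in HOM. This removal therefore does not separate the marker level from genotype. Both calls were lost again when HOM replicates 1 and 4, the library with cerebellar markers and the one without Y-linked counts, were left out together: Camk1g then stood at -0.41 (edgeR adjusted p = 0.0802) and Camkk2 at -0.31 (0.115), with 2 HOM libraries remaining. In that fit 0 of the 10 genes passed with edgeR, 4 were lower and 0 higher at an unadjusted p under 0.05, beside 6.67% of all genes lower at that level. With the choroid plexus covariate 5 were lower and 0 higher at an unadjusted p under 0.05, beside 7.29% of all genes lower. With the mean level of the cerebellar markers Gabra6 and Cbln3 as a covariate Camk1g and Camkk2 both passed (edgeR adjusted p = 0.0268 and 0.0421). Outside HOM replicate 1 these markers stood at no more than 0.0716 and 0.791 CPM, so this covariate largely marks that library. Without HOM replicate 1 the edgeR adjusted p was 0.03 for Camk1g and 0.0498 for Camkk2. The cerebellar covariate and the removal of that pair of libraries were chosen after the data were seen, and HOM replicates 1 and 4 were first noticed as the libraries in which Camk1d was high.

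**Figure D1:**
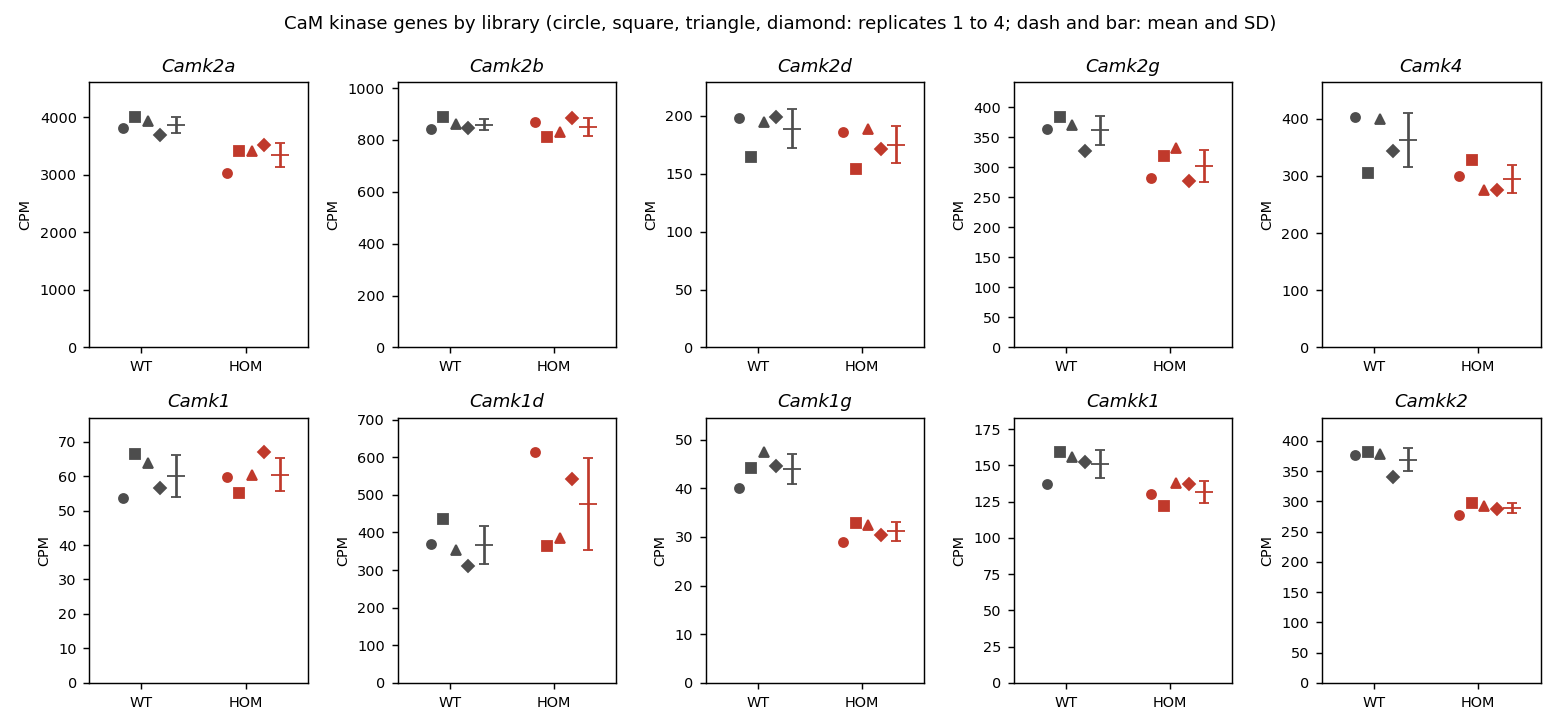
Level of each CaM kinase gene in CPM (y axes from 0) in the 4 WT (grey) and 4 HOM (red) libraries, with the symbol giving the replicate number and the dash and bar giving the mean and SD. HOM points lie below all WT points for Camk1g (28.9 to 32.9 against 40.0 to 47.4 CPM), Camkk2 and Camk2a, and the HOM points of Camk1d are split between 364 and 613 CPM.

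The second CaM kinase kinase gene, Camkk1, stood at 137, 159, 156 and 152 CPM in WT and at 130, 122, 138 and 137 CPM in HOM. The highest HOM library slightly exceeded the lowest WT library, and the difference did not pass (edgeR log2 fold change -0.20 with SE 0.07, adjusted p = 0.106). The ratio of Camkk1 to Camkk2 within a library, which no scaling between libraries can move, was 0.410 ± 0.0345 in WT and 0.457 ± 0.0301 in HOM. These ratios overlapped (exact two-sided permutation test, p = 0.114, adjusted p = 0.229 over the 8 ratios examined), so the larger fold change of Camkk2 was not shown to differ from that of Camkk1.

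Of the kinases that CaMKK1 and CaMKK2 activate, Camk1, Camk1d and Camk4 did not pass, unlike Camk1g. Camk1, the CaMKI alpha gene, stood at 53.5, 66.5, 63.7 and 56.6 CPM in WT and at 59.6, 55.1, 60.2 and 66.9 CPM in HOM. Its groups overlapped almost wholly, with a log2 fold change of 0.01 (SE 0.08, edgeR adjusted p = 0.956). Its span shares 9.58% with the DNA repair gene Ogg1, so its counts are uncertain if, as appears, strand was not used.

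Camk1d, the CaMKI delta gene, stood at 368, 435, 353 and 312 CPM in WT and at 613, 364, 384 and 542 CPM in HOM. HOM replicates 1 and 4 lay above every WT library, whereas HOM replicates 2 and 3 lay inside the WT range, and the coefficient of variation was 25.5% in HOM against 14.0% in WT, the widest of the family in each genotype. The log2 fold change of 0.37 (SE 0.16) did not pass (edgeR adjusted p = 0.177), and over the alternatives that kept HOM replicate 1 or 4 it ranged from 0.23 to 0.49 with no adjusted p under 0.0701. HOM replicate 1 is the library with cerebellar markers and HOM replicate 4 the one without Y-linked counts. Without HOM replicate 1 the value was 0.23 (adjusted p = 0.432), and without HOM replicate 4 it was 0.32 (0.293). With a span of 421 kb Camk1d is the longest of the 10 genes, and its value was 0.29 once smooth trends with gene span and exonic length had been removed from each library.

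Camk4, the gene of the nuclear kinase CaMKIV, stood at 403, 305, 400 and 344 CPM in WT and at 300, 328, 276 and 275 CPM in HOM. WT replicate 2 lay inside the HOM range and the other 3 WT libraries above it. The log2 fold change of -0.30 (SE 0.10) did not pass (edgeR adjusted p = 0.0861; exact two-sided permutation test, p = 0.0571). Camk4 passed in 3 of 21 alternatives: with DESeq2 (adjusted p = 0.0350), without WT replicate 2 (-0.38, edgeR adjusted p = 0.0334, where 3.38% of all genes were lower) and with span and length trends removed (-0.38, adjusted p = 0.0113, where 4.73% were lower). It lies on chromosome 18 from 32934931 to 33191228, and 18.1% of its exonic length is shared with other annotated genes.

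Among the CaMKII subunits, Camk2a, the alpha subunit of excitatory forebrain neurons, was by far the most abundant. It stood at 3817.8, 4005.6, 3935.0 and 3690.6 CPM in WT and at 3033.8, 3418.2, 3408.0 and 3517.4 CPM in HOM. The genotypes did not overlap, as was the case in the lower direction for 3 of the 10 genes and 7.47% of all genes tested. In the higher direction it was 0 of the 10 and 6.63% of all genes. Its log2 fold change of -0.21 (SE 0.06) nevertheless missed the threshold (edgeR adjusted p = 0.0758; exact two-sided permutation test, p = 0.0286). HOM replicate 1 was the lowest library, and without it the value was -0.15 (adjusted p = 0.236). DESeq2 gave an adjusted p of 0.0211.

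Camk2b, the beta subunit, which binds actin, stood at 841, 889, 861 and 847 CPM in WT and at 871, 810, 831 and 886 CPM in HOM. Its groups overlapped, with a log2 fold change of -0.02 (SE 0.06, edgeR adjusted p = 0.890), and over the alternatives the value lay between -0.05 and 0.05. Camk2g, the gamma subunit, which carries calmodulin towards the nucleus, stood at 364, 384, 371 and 328 CPM in WT and at 283, 319, 332 and 277 CPM in HOM. Only WT replicate 4 lay inside the HOM range, and the log2 fold change of -0.26 (SE 0.08) did not pass (adjusted p = 0.0701, and 0.0279 with DESeq2). Camk2d, the delta subunit, best known from heart muscle, stood at 198, 164, 195 and 199 CPM in WT and at 186, 154, 189 and 171 CPM in HOM, overlapping groups with a log2 fold change of -0.11 (SE 0.08, edgeR adjusted p = 0.459).

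Shares of the summed CaMKII CPM, not scaled by gene length, are given as a description. Camk2a made up 73.1%, 73.6%, 73.4% and 72.9% of the summed CPM of the 4 subunit genes in WT and 69.4%, 72.7%, 71.6% and 72.5% in HOM, while Camk2b made up 16.1% to 16.7% in WT and 17.2% to 19.9% in HOM. Neither share overlapped between genotypes. The ratio of Camk2a to Camk2b was 4.54, 4.50, 4.57 and 4.36 in WT and 3.48, 4.22, 4.10 and 3.97 in HOM. Every HOM ratio lay below every WT ratio, with means of 4.49 ± 0.0938 and 3.94 ± 0.324 and a log2 difference of -0.19 (exact two-sided permutation test, p = 0.0286). Adjusted over the 8 ratios examined it did not pass (adjusted p = 0.229), and in this design a lone ratio at the smallest p could not. The lowest ratio was that of HOM replicate 1, the library with cerebellar markers. Without that library the log2 difference was -0.13. The summed CaMKII level was 5221.2, 5443.5, 5362.0 and 5065.6 CPM in WT and 4373.7, 4701.4, 4760.0 and 4852.7 CPM in HOM. It did not overlap between genotypes and is given as a description.

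The remaining ratios overlapped between genotypes. Camk2b to Camk2g stood at 2.38 ± 0.131 in WT and 2.83 ± 0.360 in HOM (exact two-sided permutation test, p = 0.0857, adjusted p = 0.229). The ratios of Camk2a to Camk2d, Camk2a to Camk2g, Camk2b to Camk2d and Camk2d to Camk2g gave log2 differences of -0.10, 0.05, 0.09 and 0.15, within the spread between libraries (smallest p = 0.371, same exact test). The ratio of Camk2a to Camk2g, for example, was 10.7 ± 0.371 in WT and 11.1 ± 1.08 in HOM.

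**Figure D2:**
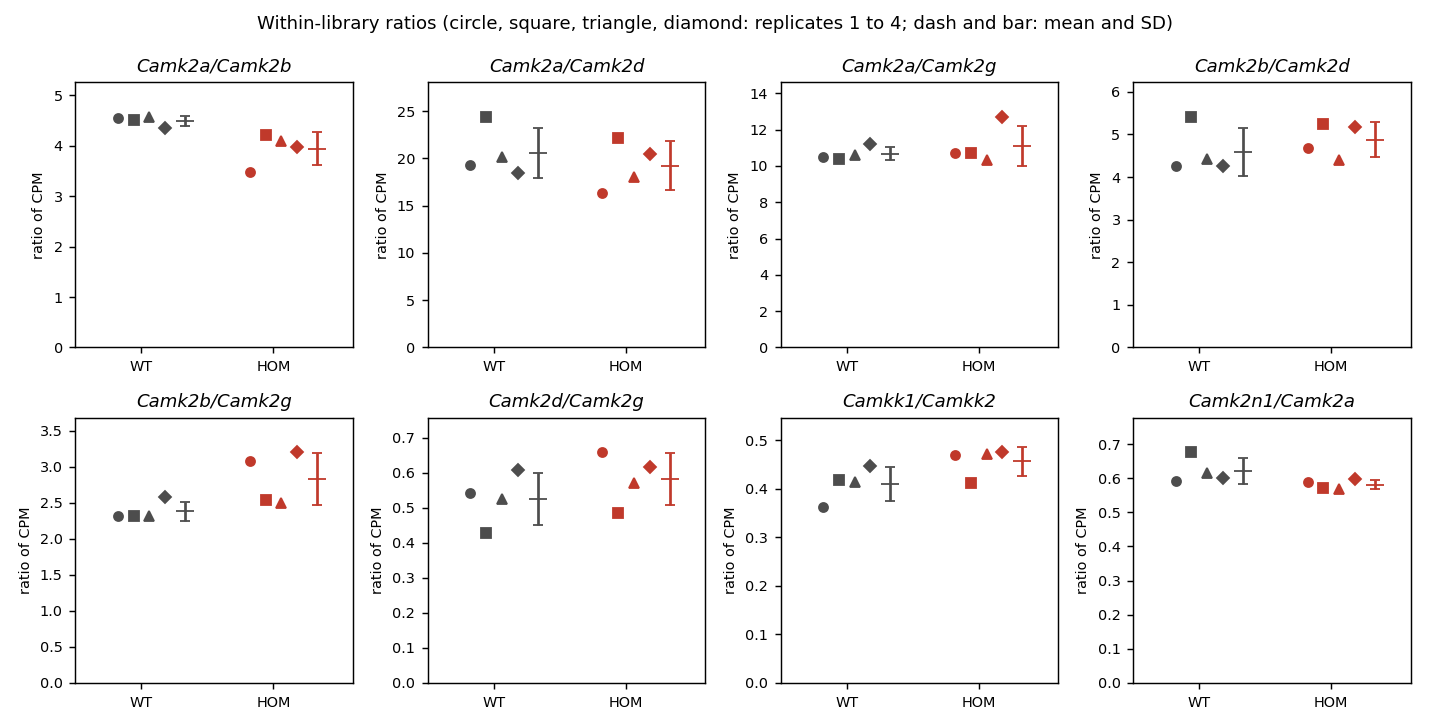
Ratio of CPM between 2 genes within each library (y axes from 0) for the 8 ratios examined, WT in grey and HOM in red, with the dash and bar giving the mean and SD. The HOM libraries lie below all WT libraries for Camk2a to Camk2b (3.48 to 4.22 against 4.36 to 4.57), and in each other panel the genotypes overlap.

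Levels were ordered per kilobase of annotated exon in WT. Camk2a led at 517 CPM per kb and stood apart from all other members. Camk4 (111 CPM per kb) and Camk2b (94.2) followed with overlapping libraries, then Camk2g (56.5), Camk1d (49.4) and Camkk1 (40.5), of which neighbours overlapped, then Camkk2 (33.8), Camk1g (15.9), Camk1 (10.1) and Camk2d (8.41), each apart from the next. The order depends on the length used, because the counts appear to include reads of introns. Per kilobase of whole gene span Camk2a was still first and Camk2d last, but Camk4 ranked 8 and Camk1d 9 of the 10. Together the 10 genes held 0.647% ± 0.0173 of all counts in WT and 0.609% ± 0.0177 in HOM, with overlapping libraries. Summed as TMM-scaled CPM they did not overlap, at 6314.0 to 6834.3 CPM in WT and 5783.2 to 6191.4 CPM in HOM. The TMM factors themselves did not overlap, at 0.9614 to 0.9881 in WT and 1.017 to 1.03 in HOM. This scaling lowers every HOM value relative to WT. With upper-quartile scaling the family median log2 fold change was -0.17, beside 0.03 for all genes.

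Around the kinases, 7 lists of pathway genes were examined, and in each most members did not pass. The counts below are to be read beside all genes tested, of which 2.94% passed as lower and 2.47% as higher (edgeR). None of 7 calmodulin and calmodulin-binding genes passed with edgeR or with DESeq2. At an unadjusted p under 0.05 (edgeR) 1 was lower, beside 12.5% of all genes. Calm3 (log2 fold change -0.11) and the small calmodulin-binding protein gene Pcp4l1 (-0.21) overlapped between genotypes. The list median was -0.11.

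Of 6 tested genes for CaMKII inhibitors and CaM kinase phosphatases, 1 fell and none rose (list median -0.08). Camk2n1 encodes a protein that binds and blocks active CaMKII. It stood at 2263.3, 2707.3, 2425.1 and 2213.0 CPM in WT and at 1786.0, 1956.7, 1933.9 and 2104.0 CPM in HOM. The genotypes did not overlap (edgeR log2 fold change -0.30 with SE 0.08, adjusted p = 0.0425), but the call was lost in 7 of 8 removals of 1 library, at adjusted p up to 0.149, and held only without HOM replicate 4. The ratio of Camk2n1 to Camk2a, inhibitor to target, was 0.621 ± 0.0378 in WT and 0.582 ± 0.0143 in HOM (exact two-sided permutation test, p = 0.0571, adjusted p = 0.229). The CaM kinase phosphatase gene Ppm1e (-0.17) and the protein phosphatase gene Ppp1cc (-0.09) did not pass, and the second inhibitor gene Camk2n2, nested in another gene, was at 0 in every library.

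Of 14 other calmodulin-linked kinases, 1 rose and 1 fell (list median 0.04). Pnck, the X-linked gene of CaMKI beta and thus a close relative of the 3 CaMKI genes above, stood at 48.0, 62.7, 53.6 and 54.6 CPM in WT and at 84.4, 61.5, 80.3 and 97.0 CPM in HOM. HOM replicate 2 lay inside the WT range and the other 3 HOM libraries above it (edgeR log2 fold change 0.56 with SE 0.12, adjusted p = 0.0255). HOM replicate 4, the library without Y-linked counts, was the highest, and without it the log2 fold change still passed, whereas removing any of WT replicates 1, 3 and 4 or HOM replicates 1 and 3 ended the call (adjusted p up to 0.0820). The myosin light chain kinase gene Mylk, typical of smooth muscle, fell from 8.54 ± 0.663 to 5.68 ± 1.01 CPM (edgeR adjusted p = 0.0266). Mylk held past the threshold in 2 of 8 removals, without WT replicate 2 or HOM replicate 2, and its relative Mylk3 (-0.54, adjusted p = 0.0682, and 0.0250 with DESeq2) did not pass. Of the 5 endothelial markers, summed at 142 to 186 CPM in WT and 113 to 145 CPM in HOM, 1, Flt1, was lower as well. At an unadjusted p under 0.05 (edgeR), 4 of the 5 were lower, beside 12.5% of all genes. The part of vessel content in the Mylk value was not tested.

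Calcineurin is the calmodulin-activated phosphatase that opposes many kinase effects at the synapse. Of 11 genes on its list 1 fell and none rose (list median -0.06). Ppp3r1, the regulatory subunit gene, went from 92.6 ± 4.90 to 68.7 ± 5.67 CPM (edgeR log2 fold change -0.43 with SE 0.07, adjusted p = 0.00993) without overlap. Its call held in all 8 removals (adjusted p up to 0.0497) and was lost without HOM replicates 1 and 4 together (0.112). Its counts are uncertain, since 44.4% of its span is shared with Wdr92. The catalytic subunit genes Ppp3ca (from 1341.3 ± 110 to 1106.5 ± 77.6 CPM, adjusted p = 0.0536) and Ppp3cb (-0.20) did not pass. DESeq2, limma-voom, robust quasi-likelihood, the removal of length trends and the removal of WT replicate 2 or HOM replicate 2 each placed Ppp3ca past the threshold.

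Of 14 synaptic substrates and anchors of CaMKII, 1 rose and 1 fell (list median -0.02). The AMPA receptor subunit gene Gria1, whose protein CaMKII phosphorylates, rose from 535 ± 27.4 to 637 ± 26.7 CPM (edgeR log2 fold change 0.25 with SE 0.06, adjusted p = 0.0389). The calmodulin-dependent Ras exchange factor gene Rasgrf2 fell from 225 ± 21.9 to 176 ± 13.9 CPM (-0.35, SE 0.08, adjusted p = 0.0321). Gria1 passed in 2 of the 8 removals of 1 library, those of HOM replicates 2 and 4, and Rasgrf2 in 3, those of WT replicates 2 and 4 and HOM replicate 2. The NMDA receptor gene Grin1 (-0.23, adjusted p = 0.116) did not pass.

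On the nuclear side, 1 of 14 genes for CREB, its coactivators, class IIa histone deacetylases and MEF2 factors rose and none fell (list median 0.00). That gene was Crtc3, a CREB coactivator, at 35.4 ± 2.18 CPM in WT and 44.7 ± 2.20 CPM in HOM (edgeR log2 fold change 0.33 with SE 0.07, adjusted p = 0.0228), which passed in 3 of 8 removals, those of WT replicate 2 and HOM replicates 2 and 4. The histone deacetylase gene Hdac9 (-0.35, adjusted p = 0.0626) and the transcription factor gene Mef2a (-0.30, adjusted p = 0.177) did not pass. Hdac9 passed in 6 of 21 alternatives: with DESeq2 (0.0204), no filter on low counts (0.0458), length trends removed (-0.51, adjusted p = 0.00103) or the cerebellar marker covariate (0.0412), and without HOM replicate 1 (0.0390) or WT replicate 2 (0.0480). Among 9 genes for AMPK subunits and Akt kinases, targets of CaMKK2, 1 rose and none fell (list median -0.11). Prkag2, an AMPK regulatory subunit gene, rose from 111 ± 4.19 to 130 ± 6.18 CPM (edgeR log2 fold change 0.23 with SE 0.06, adjusted p = 0.0441), a call kept in 1 of 8 removals, that of HOM replicate 4, whereas the catalytic subunit gene Prkaa2 (-0.28, adjusted p = 0.119) and the regulatory Prkag1 (0.16, adjusted p = 0.248) did not pass.

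None of the 8 pathway genes past the threshold kept its call with the choroid plexus covariate (edgeR adjusted p from 0.102 to 0.318). With HOM replicates 1 and 4 left out together, their adjusted p lay between 0.112 and 0.257 (edgeR), and with the cerebellar marker covariate Ppp3r1 alone of them passed (0.0411).

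**Figure D3:**
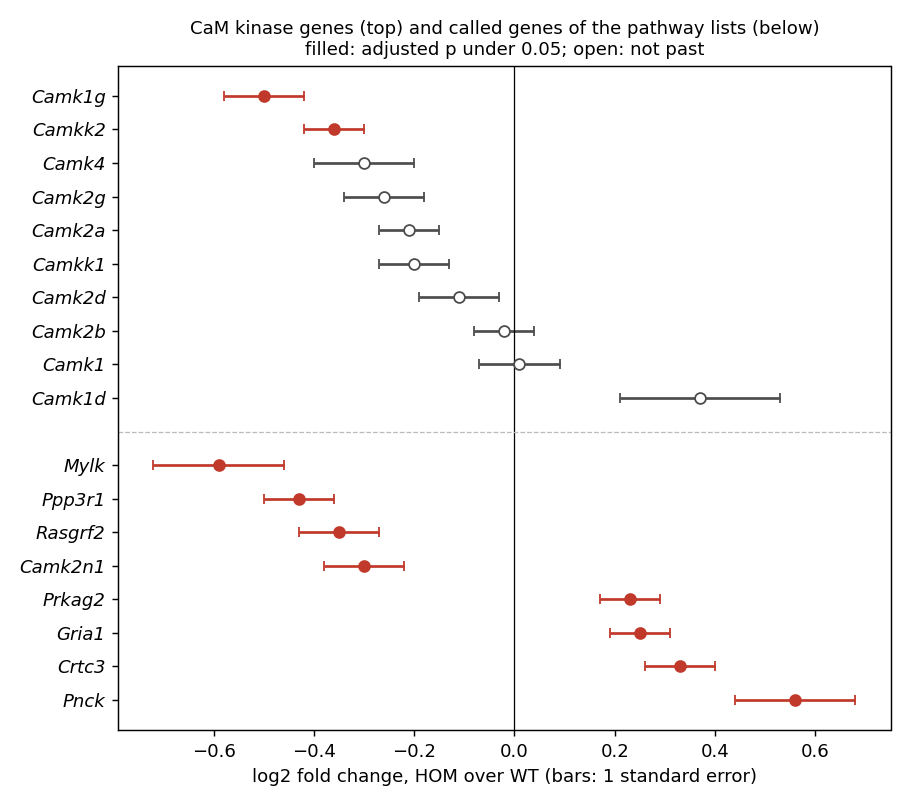
Log2 fold change of HOM over WT with 1 standard error, for the 10 CaM kinase genes (top) and the 8 pathway genes past the threshold (below), filled red where the adjusted p is under 0.05 and open grey where it is not. Camk1g (-0.50) and Camkk2 (-0.36) are the filled members, and Camk1d (0.37) has the widest error of the family.

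The protein-coding genes whose profile over the 8 libraries lay closest to that of Camk1g were Trp53inp2, Epas1, Nefm, Atmin and Fam84a. Closeness was the root mean square difference of mean-centred log2 CPM, from 0.069 to 0.073 over 9971 genes with a mean of at least 10 CPM. Their log2 fold changes were -0.48, -0.45, -0.51, -0.43 and -0.43. Values near that of Camk1g follow from this choice by profile and are given as a description. Nefm, a neurofilament gene, stood at 228 ± 15.4 CPM in WT and 161 ± 12.7 CPM in HOM, and Epas1, the gene of a hypoxia-inducible factor, at 167 ± 6.12 and 122 ± 12.3 CPM.

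**Figure D4:**
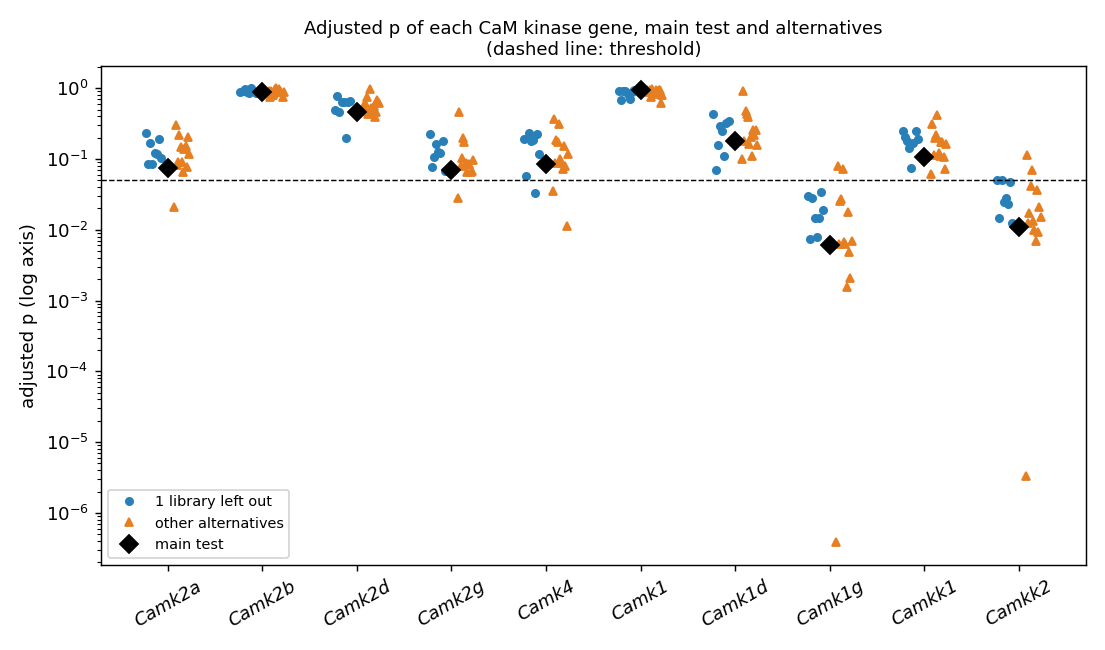
Adjusted p (log axis) of each CaM kinase gene in the main edgeR test (black diamonds), with 1 library left out (blue) and under the other alternatives (orange), the dashed line marking the threshold of 0.05. Camk1g and Camkk2 lie below the line in all but 2 alternatives each, the choroid plexus covariate (0.0732 and 0.0708) and the removal of HOM replicates 1 and 4 together (0.0802 and 0.115), while Camk2a, Camk2g and Camk4 reach it in 1, 1 and 3 alternatives.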

How the data were processed

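The deposited values are raw, whole-number counts for each Ensembl gene. The submitters' processing notes name GRCm38, STAR, featureCounts, edgeR and FastQC 0.11.3; for the annotation and strandedness of counting, the setting is not given in the sources used here. Per the labels, libraries were TruSeq stranded and paired-end. Of 1280 protein-coding genes nested in another gene, 1261 stood at 0 in every library, against 13.5% of those not nested, so reads appear to be counted over whole gene bodies without strand.

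Counts were tested with edgeR 4.0.16 (R 4.3.3; quasi-likelihood F test, TMM, filterByExpr: 10 counts in 4 libraries, 15 in all), which kept 17395 genes and all 10 CaM kinases; the script was tested on simulated data, where a first mark for recovering 2-fold changes over all genes was missed and the mark was then limited to genes of at least 1 CPM, which met it. Log2 CPM used a prior count of 2. Alternatives used DESeq2 1.42.0, limma 3.58.1 and mgcv 1.9.3. No 2 libraries of the same genotype agreed within sampling noise (lowest chi-square per degree of freedom 7.03). The members and lists were chosen with earlier results of these data known. Named were Scn2a, all members, up to 3 genes of smallest p per list, every list gene past the threshold, and the 5 genes closest in profile to the member of smallest p; marker genes are named where 1 passed or stood at 0. A gene that this rule names is not reported here.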

Additional observations from a re-analysis of the deposited data

Results flagged for a closer look

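In 7 of 80 groups of 4 libraries examined, 1 library stood apart from the other 3 by more than the 95% critical value of Dixon's test; chance alone flags about 1 group in 20. Camkk2 was at 340 CPM in WT replicate 4 against 377 to 381 CPM in the other WT libraries, and Camk2d at 164 CPM in WT replicate 2 against 195 to 199 CPM. Calm3 was at 1577.3 CPM in HOM replicate 4 against 1287.7 to 1319.1 CPM, and Prkag1 at 13.2 CPM in WT replicate 4 against 15 to 15.3 CPM. Among ratios, Camk2b to Camk2d was 5.41 in WT replicate 2 against 4.25 to 4.42, Camk2b to Camk2g was 2.58 in WT replicate 4 against 2.31 to 2.32, and Camkk1 to Camkk2 was 0.412 in HOM replicate 2 against 0.469 to 0.475. Camk1d in HOM, split into a pair of high and a pair of low libraries, did not meet this criterion.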

How the results depend on the processing

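The number of CaM kinase members called was 2, and 5 with DESeq2 (Camk2a, Camk2g and Camk4 in addition). It was 0 with the choroid plexus covariate (edgeR; 5 lower at an unadjusted p under 0.05, beside 7.29% of all genes), 0 without HOM replicates 1 and 4 (edgeR; 4 lower at an unadjusted p under 0.05, beside 6.67% of all genes), and 2 to 3 with 1 library left out. The number of genes called in HOM against WT was 940, and 1900 with DESeq2, 335 without WT and HOM replicates 4 together, 39 with the choroid plexus covariate, 68 without HOM replicates 1 and 4, 235 with the cerebellar marker covariate (both chosen after seeing the data), 1593 with length trends removed and 180 to 1187 with 1 library left out. With upper-quartile scaling 539 genes were higher and 355 lower, against 429 and 511, at a median of 0.03. The replicate block called 364 genes and 2 CaM kinase genes, the same number as without it, while of the 8 pathway genes called Ppp3r1 alone passed with the block (0.0201; the others from 0.0592 for Rasgrf2 to 0.0932 for Prkag2, edgeR); same-numbered libraries did not deviate together (r from -0.28 to 0.08), and 0 of 8 libraries correlated best with its own number. Values near 0 changed sign: Camk2b to 0.02 with upper-quartile scaling, 0.00 with the 1 CPM filter, 0.05 with length trends removed, and 0.02 and 0.01 without HOM replicates 2 and 3 (-0.03 to 0.02 over all removals of 1 library); Camk1 to -0.06 without WT and HOM replicates 4, -0.04 without HOM replicates 1 and 4, -0.08 with the choroid plexus covariate, -0.02 without HOM replicate 4, -0.04 without WT replicate 1 and -0.02 without WT replicate 4 (-0.04 to 0.06 over all removals of 1 library); with the choroid plexus covariate Camk2d to 0.02. With that covariate Pcp4l1 went from -0.21 to 0.06. The cause was not tested.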
